A study of Canis lupus familiaris with 14 samples.

Results

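The 4 genes described here lie on unplaced scaffolds of the dog genome, out of 30951 genes counted in whole blood RNA. They were named in advance as ENSCAFG00000028987, ENSCAFG00000047367, ENSCAFG00000036997 and ENSCAFG00000038302, and were chosen by their counts in these same libraries, which were higher in lymphoma than in non-lymphoma dogs. Their differences between those groups are therefore given as a description, with no test. Blood was taken from 7 dogs labelled with lymphoma (L1 to L7, condition disease) and 7 labelled as non-lymphoma disease, the control condition (N1 to N7). The labels give no breed, age, lymphoma subtype, treatment or blood cell count for either group. Both groups share the tissue, the Trizol extraction of total RNA and the Illumina library protocol, and nothing in the labels says whether ribosomal RNA was depleted.

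The 18S rRNA is the RNA core of the small subunit of the cytoplasmic ribosome. It is cut from a long precursor that RNA polymerase I makes from tandem repeats of ribosomal DNA, and in total RNA the rRNAs outweigh all messenger RNA. Such repeats are hard to assemble, and pieces of them often end up on short scaffolds that belong to no chromosome. Mitochondria make their own pair of rRNAs from the mitochondrial genome, a small and a large one for the mitochondrial ribosome, whose mature forms carry short adenine tails. Total blood RNA comes from white cells, platelets and immature red cells, and in such bulk samples fewer cells of a type and less RNA per cell cannot be told apart.

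Of the 4 genes, only ENSCAFG00000028987 has the length of an 18S rRNA. It is a single exon on the plus strand of scaffold AAEX03025866.1, filling every base from 1344 to 3212 in CanFam3.1. The other 3 are longer and are split in a similar way, each into a pair of exons around a gap of 53 bases. ENSCAFG00000047367 lies alone on AAEX03025644.1 from 203 to 2449 on the minus strand, with exons of 1119 and 1075 bases in transcript order. ENSCAFG00000036997 lies on the plus strand of AAEX03024828.1 from 5407 to 7587, with exons of 1107 and 1021 bases. ENSCAFG00000038302 lies on the plus strand of AAEX03025132.1 from 4453 to 6681, with exons of 1101 and 1075 bases. The table pairs identifiers with positions and no names, and 0 of the identifiers matched the reference gene table used here. Whether any of the 4 encodes an rRNA was not checked against sequence, and they are called scaffold genes below.

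The paired structure is rare in the annotation. Of 4369 genes with 2 exon blocks, 17 have both blocks between 1000 and 1200 bases, and 4 of the 17 have the 53-base gap. All 4 are on unplaced scaffolds, and they are the 3 genes above and ENSCAFG00000031281 (AAEX03025102.1, 4404 to 6611), which held 1 count over all 14 libraries. Genes with a 53-base gap beside a block of at least 1000 bases numbered 10, of which 6 were on unplaced scaffolds. ENSCAFG00000034058 (AAEX03025665.1, 3586 to 5139, exons of 426 and 1075 bases), another of the 6, held 11 counts, all of them in lymphoma. A second single-exon gene of exactly the same length as ENSCAFG00000028987, ENSCAFG00000047270, lies on JH373485.1 from 22624 to 24492.

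**Figure D1:**
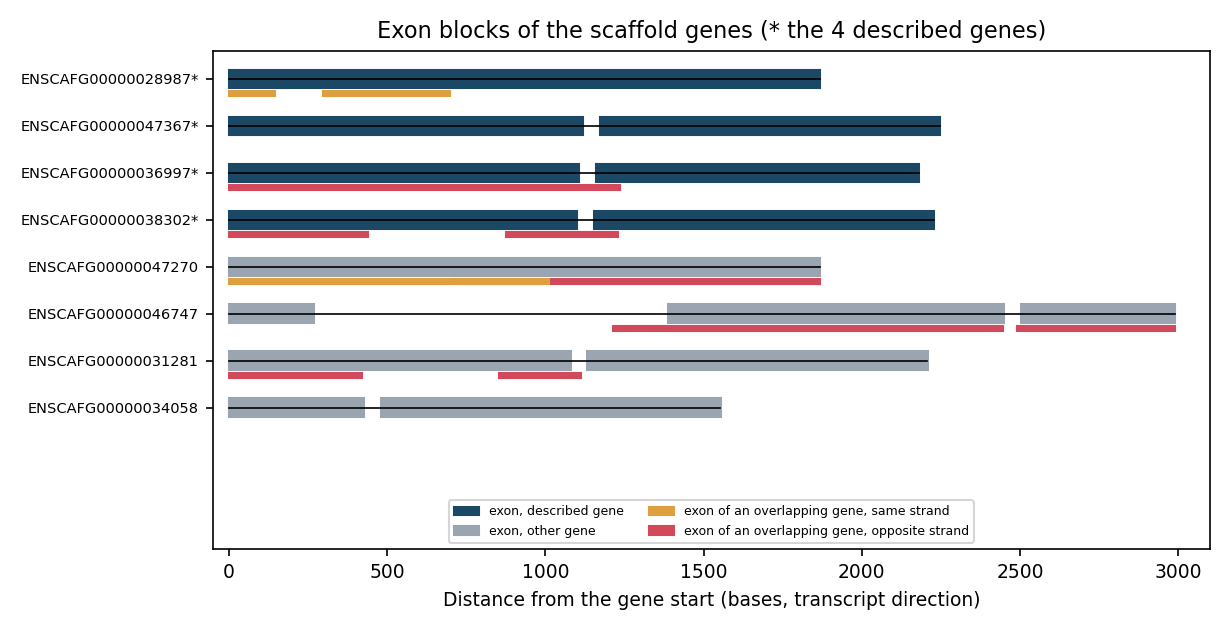
Exon blocks of the 4 scaffold genes (dark) and of 4 others with the same exon length or the 53-base gap (grey), drawn to scale in bases from each gene's start in transcript direction, with overlapped stretches in colour below. The single-exon gene stands beside 3 genes split by the same gap, and ENSCAFG00000047367 is the only one of the 4 dark genes with no overlap.

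Overlap with other genes limits what some of these counts mean, because the counting command set no strand option and no option for read pairs that fall in several genes or map to several places. In ENSCAFG00000028987, 545 bases (29.2%) are shared with exons of a gene on the same strand, from 21 to 4190, which held 116 to 1099 counts in lymphoma against 90 to 3077 in the non-lymphoma group. That neighbour was not higher in lymphoma (log2 fold change -0.90, SE 0.60, edgeR adjusted p = 0.299). In ENSCAFG00000036997, 1183 bases (55.6%) are shared with an opposite-strand gene that held 0 counts in every library. In ENSCAFG00000038302, 741 bases (34.1%) are shared with an opposite-strand gene that held 3 counts, all of them in the non-lymphoma group. The counts of these 3 genes are uncertain for that reason, and reads shared between near-identical copies were not examined.

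Library totals were 9845059 to 14831589 counts for lymphoma against 13522628 to 21610927 for non-lymphoma, and genes with at least 1 count numbered 14733 to 18162 and 17080 to 24649. Sample numbers in the labels have 5 digits in L5, L6 and all 7 non-lymphoma libraries and another form in the other 5 lymphoma libraries. The labels do not say that the form marks a batch, so values within the 5-digit libraries are given beside the results. Blood cell markers could not be looked up without gene names. The labels name no repeat libraries of a dog. The p-values given rest on the spread among these 14 libraries, in which differences between dogs and technical differences cannot be told apart.

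ENSCAFG00000028987 dominated the 4 genes in both groups. In lymphoma it held from 35234 (L1) to 177477 (L5) counts, with a median of 80806, and in the non-lymphoma group from 117 (N4) to 3972 (N7), with a median of 353. No non-lymphoma library reached the lowest lymphoma library. As a share of all counts, that is 0.268 to 1.503% in lymphoma (median 0.702%, mean 0.886%, SD 0.534, n = 7) against 0.000720 to 0.0252% in non-lymphoma libraries (median 0.00215%, mean 0.00799%, SD 0.0109, n = 7). It ranked between 5 and 15 among all genes by count in lymphoma libraries and between 626 and 9011 in non-lymphoma libraries. The spread inside each group was wide, 5.61-fold between the lowest and highest lymphoma share and 35.0-fold among the non-lymphoma libraries, where N5 (3589 counts) and N7 stood above the rest.

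ENSCAFG00000047367, the second most abundant, held 1438 (L1) to 6006 (L7) counts in lymphoma, with a median of 2805. In non-lymphoma libraries it held 12 (N4) to 114 (N7), with a median of 19. The groups did not overlap, and N5 and N7 were again the highest of the non-lymphoma libraries, at 100 and 114. ENSCAFG00000036997 held 272 (L1) to 3107 (L7) counts in lymphoma, with a median of 667, against 0 to 4 in the non-lymphoma group, with a median of 3. The lymphoma libraries L5 and L7 stood apart at 2668 and 3107, while N5 and N7 held 1 and 3 and did not stand out. ENSCAFG00000038302 was the least abundant, with 19 (L1) to 185 (L5) counts in lymphoma, a median of 37, and 2 counts in each of N2 and N7 against 0 in the other 5 non-lymphoma libraries. A count of 0 there allows a level of up to 0.139 to 0.222 CPM (counts scaled to a library total of 1000000), taking 3 counts of each non-lymphoma library's total.

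As CPM per kilobase of exon, the level of ENSCAFG00000028987 was 1434 to 8041 in lymphoma (median 3757) against 3.85 to 135 in non-lymphoma libraries (median 11.5). On the same scale, ENSCAFG00000047367 had a median of 111 in lymphoma against 0.471 in non-lymphoma libraries. The other pair had lymphoma medians of 27.2 (ENSCAFG00000036997) and 1.68 (ENSCAFG00000038302) per kilobase. Length-adjusted counts inside a group were thus far apart, with the single-exon gene highest. The length used includes bases shared with other genes, except in ENSCAFG00000047367, so levels compared between genes are uncertain.

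**Figure D2:**
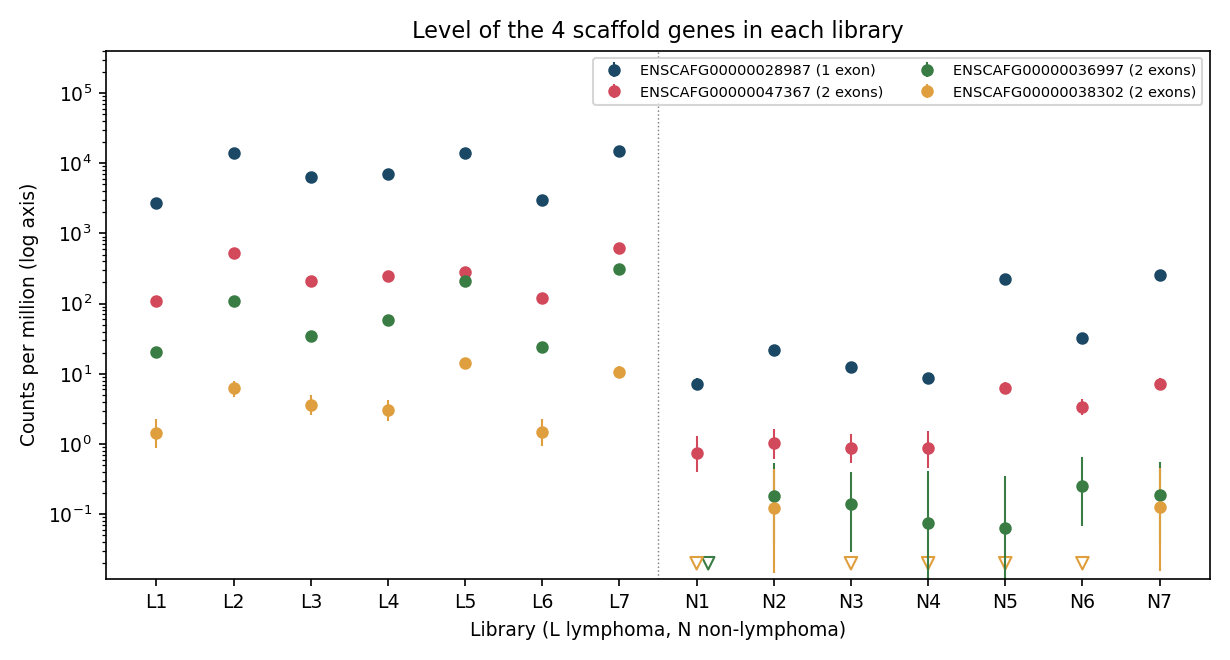
CPM of the 4 scaffold genes in each library on a log axis, lymphoma left and non-lymphoma right, with exact 95% counting intervals as bars and triangles at the bottom for 0 counts. Every gene lies higher in L1 to L7 than in N1 to N7, and N5 and N7 rise for the 2 most abundant genes and not for ENSCAFG00000036997.

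Every lymphoma library exceeded every non-lymphoma library in CPM for 4 of the 4 genes, and the same values chose them; over all 12836 tested genes 2.03% showed that pattern and 1.75% the opposite one. By edgeR's quasi-likelihood test at an adjusted p under 0.05, 9.21% of them were called higher in lymphoma and 7.4% lower. Between the highest non-lymphoma and the lowest lymphoma share lay a factor of 10.6 for ENSCAFG00000028987, 15.1 for ENSCAFG00000047367, 82.2 for ENSCAFG00000036997 and 11.4 for ENSCAFG00000038302. With L5 and L6 as the only lymphoma libraries, which puts both groups in the 5-digit form, the 4 values were 11.8, 16.4, 96.1 and 11.7. Leaving out lymphoma libraries cannot lower such a factor, so these values do not show what part the number form had. That part was not tested.

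Pooled over the libraries of a group, the CPM of ENSCAFG00000028987 was 109 times higher in lymphoma (95% counting interval 107 to 112), and that of ENSCAFG00000047367 98.6 times (88.5 to 110). The fold of ENSCAFG00000036997 was 804 (487 to 1437), and that of ENSCAFG00000038302 was 165 (63.9 to 607), the latter resting on 4 non-lymphoma counts. N5 and N7 held 7561 of the 8937 non-lymphoma counts of ENSCAFG00000028987. Its fold was 170 (166 to 175) without N7 and 517 (490 to 545) without both, and that of ENSCAFG00000047367 was 205 (171 to 249) without both. The fold of ENSCAFG00000036997 was then 798 (446 to 1599), so its distance from the single-exon gene was small without these libraries. The fold of ENSCAFG00000038302 was 283 without N2 and 285 without N7. These intervals are exact and cover counting error only, not differences between dogs, and the libraries were left out after the data were seen. Fitted by edgeR across all genes, the log2 fold changes were 7.23 (SE 1.04), 7.15 (SE 0.77), 10.07 (SE 0.95) and 7.39 (SE 0.88) in the same order. The last 2 depended on the prior count added before the logarithm, and were 8.22 and 4.25 with a prior count of 5.

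The ratios among the genes differed in how stable they were. ENSCAFG00000047367 gave 2.00 to 4.08 counts per 100 counts of ENSCAFG00000028987 in lymphoma (median 3.77, mean 3.52, SD 0.738, n = 7). L5 was the low one, at 2.00 (counting interval 1.93 to 2.07), and the other 6 lay between 3.25 and 4.08. In the non-lymphoma libraries the ratio was 2.79 in N5 and 2.87 in N7, inside the lymphoma range only through L5 and below the other 6. In N1, N3, N4 and N6, where the numerator held 12 to 54 counts, the ratio was 10.4, 6.96, 10.3 and 10.6. The counting interval of each lay above the highest lymphoma ratio, that of L1 at 4.08. The interval of N3 (4.13 to 11.1) still overlapped that of L1 (3.87 to 4.30). N2, at 4.82 (2.77 to 7.82), could not be told from the lymphoma range at this depth. The median over the non-lymphoma libraries was 6.96, above the lymphoma median of 3.77. Summed over libraries the ratio was 3.32 (3.28 to 3.37) in lymphoma and 3.68 (3.29 to 4.11) in non-lymphoma, and the latter rested on N5 and N7, without which it was 8.36 (6.85 to 10.1).

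ENSCAFG00000036997 varied more. Per 100 counts of ENSCAFG00000028987 it gave 0.533 (L3) to 2.10 (L7) counts in lymphoma, with a median of 0.810 and a coefficient of variation of 52.8%, against 21.0% for ENSCAFG00000047367. L5 at 1.503 and L7 at 2.10 were high, and the other 5 lay between 0.533 and 0.825. In N5 the ratio was 0.0279 (0.000705 to 0.155), and in N7 it was 0.0755 (0.0156 to 0.221). Both intervals lay below the lowest lymphoma ratio, whose own interval was 0.479 to 0.592. N5 and N7 therefore lay below every lymphoma library for this ratio. For the ratio of the 2 most abundant genes they measured below all but L5, but counting did not resolve them from L3 and L4. In the other 5 non-lymphoma libraries the ratio of ENSCAFG00000036997 was 0 to 1.10 with 0 to 4 counts. The counting intervals there covered at least part of the lymphoma range. The median ratio over the 7 non-lymphoma libraries was 0.787, close to the lymphoma median of 0.810. Summed over libraries it was 1.23 (1.21 to 1.26) in lymphoma against 0.168 (0.0939 to 0.277) in the other group, but that gap came from N5 and N7: without them the non-lymphoma value was 0.799 (0.398 to 1.43), and without N5 alone it was 0.262.

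ENSCAFG00000038302 gave 0.0433 (L4) to 0.104 (L5) counts per 100 of ENSCAFG00000028987 in lymphoma. L5 was the highest, with an interval of 0.0898 to 0.120, and L7 followed at 0.0710. L5 was thus low for ENSCAFG00000047367 and high for the other 2-exon genes, so that no single ratio described all 7 lymphoma libraries. In N7 the ratio was 0.0504 on 2 counts, and in N5 a count of 0 gave an upper bound of 0.103, so a difference from lymphoma was not detectable at this depth. Set against each other, ENSCAFG00000036997 gave 16.4 to 75.2 counts per 100 of ENSCAFG00000047367 in lymphoma (median 20.8), and ENSCAFG00000038302 gave 3.38 to 10.6 per 100 of ENSCAFG00000036997 (median 6.13).

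**Figure D3:**
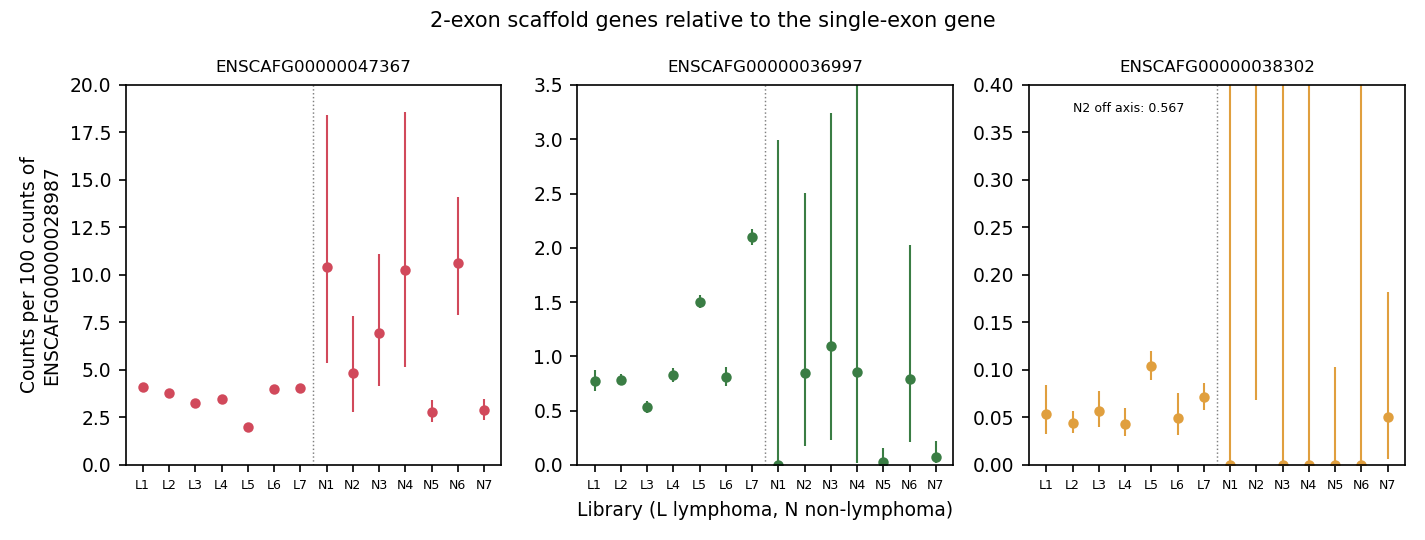
Counts of each 2-exon gene per 100 counts of ENSCAFG00000028987 by library, with exact 95% counting intervals as bars, some of which run past the top of the axis, as does N2 for ENSCAFG00000038302 (0.567). L5 is low for ENSCAFG00000047367 (2.00) and high for the other pair. N5 and N7 lie below every lymphoma library for ENSCAFG00000036997. For ENSCAFG00000047367 their points lie below all but L5, with intervals that overlap those of L3 and L4.

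The genes were chosen by counts that were higher in lymphoma, and whether variation inside a group also entered that choice is not known. Relations inside a group were tested with this limit. Over the 7 lymphoma libraries the log2 share of ENSCAFG00000028987 rose with that of ENSCAFG00000047367 (Pearson r = 0.94, exact permutation p = 0.00377, adjusted 0.0113; Spearman rho = 1.0, exact permutation p = 0.000397, adjusted 0.00357, the smallest p that 5040 pairings can give). Without L1 and L6, the libraries farthest from the median, r was 0.81. With ENSCAFG00000036997 the values were r = 0.93 (exact permutation p = 0.00516, adjusted 0.0116) and rho = 0.96 (exact permutation p = 0.00278, adjusted 0.00833), and r = 0.92 without the same libraries. With ENSCAFG00000038302 they were r = 0.95 (exact permutation p = 0.00357, adjusted 0.0113) and rho = 0.86 (exact permutation p = 0.0238, adjusted 0.0536), and r = 0.88 without them. All 3 genes therefore followed the single-exon gene from library to library by Pearson's r, while the rank correlation of the least abundant one did not pass after adjustment over 9 relations. Other genes did so too: 179 of 12835 had an r of at least 0.9 with it in log2 CPM over these libraries.

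Over the 7 non-lymphoma libraries ENSCAFG00000047367 also rose with ENSCAFG00000028987 (r = 0.96, exact permutation p = 0.000397, adjusted 0.00357; rho = 0.96, exact permutation p = 0.00278, adjusted 0.00833), a relation computed after the data were seen. It kept an r of 0.84 without N5 and N7. The other pair held too few non-lymphoma counts for such a relation. The relation to sequencing depth did not pass after adjustment: in lymphoma the log2 share of ENSCAFG00000028987 against the log2 total count gave r = -0.69 (exact permutation p = 0.101, adjusted 0.142) and rho = -0.82 (exact permutation p = 0.0341, adjusted 0.0614). Without L1 and L6 that r was -0.04, and the part of depth in the levels was not tested.

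**Figure D4:**
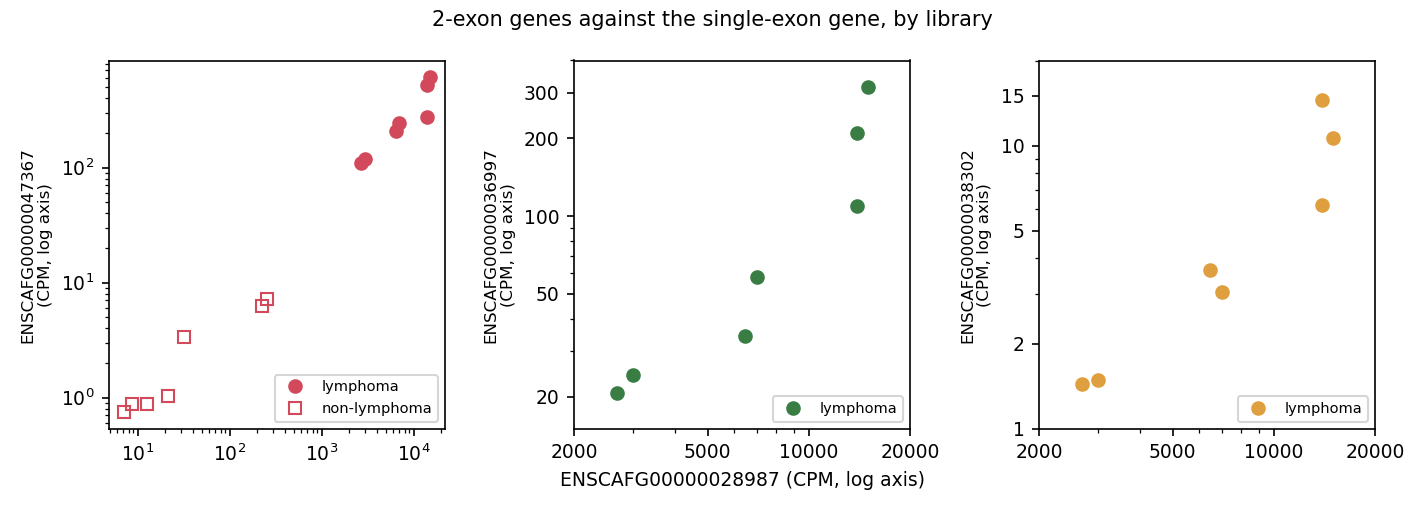
CPM of each 2-exon gene against CPM of ENSCAFG00000028987 on log axes, 1 point per library (filled for lymphoma, open for non-lymphoma; the last 2 panels show lymphoma only). The points rise together in each panel, with Pearson r of 0.94, 0.93 and 0.95 over the lymphoma libraries.

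The mitochondrial rRNA genes gave a measure of other rRNA in the same libraries. They lie on the mitochondrial chromosome, the small one from 70 to 1023 (954 bases, ENSCAFG00000022709) and the large one in the 1580 bases up to 2670 (ENSCAFG00000022711), and are called the small and the large mitochondrial rRNA gene below. The large gene took 14.6 to 22.1% of counts in lymphoma (median 16.9%, mean 17.2%, SD 2.66, n = 7) against 7.999 to 26.3% in non-lymphoma libraries (median 14.6%, mean 14.7%, SD 6.06, n = 7). The small gene took 1.76 to 4.34% (median 3.29%, mean 3.26%, SD 0.835) against 1.58 to 7.08% (median 3.72%, mean 3.87%, SD 1.66). The groups overlapped for both genes. The two-sided exact permutation p was 0.350 for a mean difference of 2.51 percentage points for the large gene, and 0.435 for -0.614 for the small gene, lymphoma minus non-lymphoma, each with an adjusted p of 0.576 over 4 measures, of which the summed share is another (difference 1.89 points, exact permutation p = 0.576). For the large gene the difference was 4.44 points without N3 (exact permutation p = 0.0256, adjusted 0.0513), which passes 0.05 before adjustment only. Within the 5-digit libraries it was 5.64 points (exact permutation p = 0.278), and that of the summed share 5.77 points (exact permutation p = 0.333). In the edgeR fit the log2 fold changes were 0.46 (SE 0.46, adjusted p = 0.498) for the large gene and 0.00 (SE 0.41, adjusted p = 0.998) for the small gene, the latter changing sign with the scaling.

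The ratio of the mitochondrial pair was lower in lymphoma, by a test that depended on single libraries. The small gene gave 12.1 (L4) to 23.4 (L6) counts per 100 counts of the large gene in lymphoma, with a median of 18.1, against 19.7 (N7) to 35.6 (N5) in non-lymphoma libraries, with a median of 26.4. The groups overlapped, and 7 of the 7 lymphoma libraries lay below the non-lymphoma median. The difference in mean log2 ratio was -0.49 (exact permutation p = 0.00758, adjusted 0.0303; smallest p possible 0.000583). With each library left out in turn the adjusted p was 0.0140 to 0.0699, and it was 0.05 or more without any 1 of 8 libraries (L3, L4, L5, L7, N1, N3, N4 or N5). Within the 5-digit libraries the difference was -0.40 with an exact permutation p of 0.139, where 2 against 7 libraries cannot give a p below 0.0278. The number form and the group cannot be told apart for the other 5 lymphoma libraries.

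In every library of both groups, ENSCAFG00000028987 held fewer counts than either mitochondrial rRNA gene. It gave 1.61 to 8.39 counts per 100 counts of the large gene in lymphoma (median 4.80) against 0.00481 to 0.315 in non-lymphoma libraries (median 0.0126). Per 100 counts of the small gene it gave 6.88 to 46.3 (median 36.5) and 0.0178 to 1.597 (median 0.0538). Adjusted for exon length, the lymphoma medians were 4.05 per 100 against the large gene and 18.6 per 100 against the small gene. With either mitochondrial gene as the yardstick the groups remained apart.

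Inside the lymphoma group the relation of the single-exon gene to the mitochondrial rRNA genes did not pass the test. Its log2 share gave r = 0.45 with the large gene (exact permutation p = 0.312, adjusted 0.351; rho = 0.32, exact permutation p = 0.498) and r = -0.04 with the small gene (exact permutation p = 0.947; rho = -0.07). Without L1 and L6 the r values were 0.73 and 0.80. On log2 CPM with TMM scaling the same 7 libraries gave r = 0.78 with the large and 0.43 with the small gene (ranks 845 and 3155 of 12835 genes), so these values depend on the scaling. Over the non-lymphoma libraries r was -0.70 with the large gene (exact permutation p = 0.0823, adjusted 0.142) and -0.65 with the small gene (exact permutation p = 0.110, adjusted 0.142), with rho = -0.43 for both. Those negative values rest on N5 and N7, since without them r was 0.26 and 0.00.

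**Figure D5:**
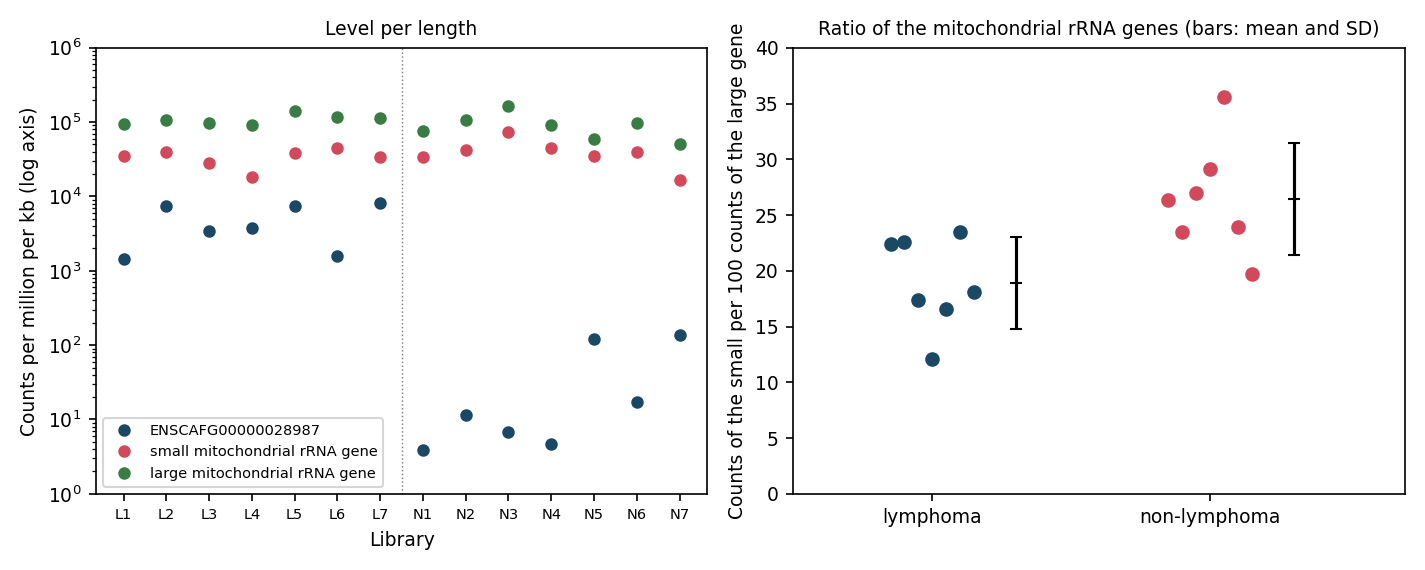
Left, CPM per kilobase of exon of the small and large mitochondrial rRNA genes and of ENSCAFG00000028987 by library on a log axis; right, counts of the small per 100 counts of the large gene in each library, with the mean and SD (n = 7) as bars. The mitochondrial genes overlap between the groups while the scaffold gene does not, and the mitochondrial ratio has a mean of 18.9 in lymphoma and 26.4 in non-lymphoma libraries.

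The rest of the unplaced scaffolds did not show the same pattern as a set, though single genes on them, such as ENSCAFG00000047270, also held more counts in lymphoma. The 4 genes took 40.3 to 94.4% of all counts on unplaced scaffolds in lymphoma (median 77.4%) against 0.244 to 8.64% in non-lymphoma libraries (median 1.14%). The other 523 scaffold genes took 0.197% of all counts in lymphoma (SD 0.109, n = 7) and 0.297% in non-lymphoma libraries (SD 0.0949, n = 7). Of these, 95 passed the filter on low counts, and edgeR called 1 higher and 8 lower. Over all tested genes it called 9.21% higher and 7.4% lower. The median log2 fold change of the 95 was -0.25, against -0.05 over all tested genes. The higher one has 4 exon blocks and 2170 exonic bases on AAEX03025416.1 (3246 to 6037), with 12 to 91 counts in lymphoma against 0 to 4 outside it (log2 fold change 5.66, SE 0.79, edgeR adjusted p = 0.00088).

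Other lists were read against the 16.6% of all tested genes that were called in either direction, and the single-exon genes lay near that share. Of 250 other single-exon genes of 1500 to 2200 bases, 77 were tested, and edgeR called 6 higher and 6 lower; the median log2 fold change was -0.11. Of 13 mitochondrial genes of 200 bases or more other than the rRNA genes, 13 were tested and edgeR called 0, with a median of 0.30; 5 had an unadjusted p under 0.05 and DESeq2 called 2. Of 22 mitochondrial genes under 100 bases, 3 were tested and 1 was higher.

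The second single-exon gene of the same length, ENSCAFG00000047270, held 9, 40, 7, 19, 45, 8 and 43 counts in L1 to L7 and 1 count in N7, with 0 in the other 6 non-lymphoma libraries. It was highest in L5, L7 and L2, the libraries where ENSCAFG00000028987 was also highest. Its counts were 0.0107 to 0.0292 per 100 of that gene in lymphoma, and it did not pass the filter on low counts. All of its bases are shared with exons of other genes, among them a same-strand gene (23482 to 27183) with 2486 to 28654 counts in lymphoma against 9344 to 46173 in the other group, so its counts are uncertain.

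Likeness to ENSCAFG00000028987 was ranked by Pearson r of log2 CPM over 12835 other tested genes, as a description, since all points share library totals and the group difference. Over 14 libraries the other 3 scaffold genes ranked 1 (ENSCAFG00000047367, r = 0.99), 3 (ENSCAFG00000036997, r = 0.95) and 5 (ENSCAFG00000038302, r = 0.94). The most alike genes outside the 4 were a 2-block gene on chromosome 1 (60597757 to 60599664, r = 0.97, 54 to 491 counts in lymphoma against 0 to 60), a 50-block gene on chromosome 11 (66051443 to 66141802, r = 0.95, 1885 to 3649 against 2170 to 4104), and a single exon of 283 bases on chromosome X (89603324 to 89603606, r = 0.93, 146 to 377 against 1 to 29). A gene on chromosome 7 (80952562 to 80974512) and the higher scaffold gene on AAEX03025416.1 followed, each with r = 0.92. The mitochondrial rRNA genes ranked 2891 (the large gene, r = 0.37) and 6021 (the small gene, r = -0.03).

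Over the 7 lymphoma libraries alone, more genes reached a high r, which 7 points reach more easily than 14. The other 3 scaffold genes then ranked 30, 32 and 41, with r of 0.95 to 0.96, and the 179 genes with an r of at least 0.9 compare with 19 over all 14 libraries. The 5 most alike lay on chromosome 1 (73792028 to 73794817), chromosome 14 (36971420 to 37120193), chromosome 36 (19732276 to 19808769), chromosome 8 (62441752 to 62522836) and chromosome 12 (1202721 to 1204655), with r from 0.98 to 0.99. The other 3 scaffold genes thus did not hold the top ranks, but the top 5 were picked as the highest of 12835 values. Whether r differed between them and the scaffold genes was not tested. Over 14 libraries the group difference also enters r, so 179 and 19 are not like counts. The TMM factors were 0.67 in L2 and 0.68 in L7, against 0.91 to 1.15 in the other lymphoma libraries. The part of that scaling in r was not tested.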

How the data were processed

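The authors deposited raw counts per gene: featureCounts 2.0.1 counted read pairs over exons of the Ensembl release 103 annotation of CanFam3.1, per the file headers, with no strand, multiple-mapping or multiple-overlap option in the command. HISAT2 2.2.1, Subread 2.0.1 and DESeq2 are named in the submitters' processing notes. The 4 genes, the lists and the tests were chosen with earlier results of these data known.

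All 14 columns matched a sample, 0 rows named no gene, and no 2 libraries were near identical. Groups were compared with edgeR 4.0.16 in R 4.3.3 (filterByExpr, TMM, quasi-likelihood F test, Benjamini-Hochberg adjustment at 0.05), which tested 12836 genes on all 14 libraries; each SE was obtained from the log2 fold change and its F statistic. CPM is counts scaled to a library total of 1000000, and likeness used log2 CPM with TMM and a prior count of 2. Single values were tested with two-sided exact permutation over 3432 assignments, and correlations over 5040 pairings. Counting intervals are exact at 95%. Named genes were the 4, the mitochondrial rRNA genes, the 5 most alike over each set of libraries, and the neighbours. The edgeR fit was checked on simulated counts, and the permutation test between groups on a small example with a known answer. Alternatives were other scalings, totals, filters, prior counts, DESeq2 1.42.0, a replicate block, the 5-digit libraries and each library left out. Sequences were not used here. Python 3.11.15, numpy 2.4.6, scipy 1.17.1, pandas 2.3.3 and matplotlib 3.10.9 were used.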

Additional observations from a re-analysis of the deposited data

Results flagged for a closer look

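Of 24 groups of 7 libraries examined, 3 had a library whose gap to the nearest other, as a part of the group's range, exceeded Dixon's 95% critical value, and chance at 1 in 20 gives 1.2. L5 was low for counts of ENSCAFG00000047367 per 100 of ENSCAFG00000028987, at 2.00 with a gap of 0.602 of the range. N2 was high for ENSCAFG00000038302 per 100 of ENSCAFG00000028987, at 0.567 with a gap of 0.911 of the range, on 2 counts against 353. N7 was high for ENSCAFG00000028987 per 100 counts of the small mitochondrial rRNA gene, at 1.597 with a gap of 0.581 of the range.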

How the results depend on the processing

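The 4 genes were chosen as higher in lymphoma and their groups did not overlap, so the direction of their log2 fold changes was set beforehand. With the 23 alternatives run for each, the log2 fold changes ran from 6.85 to 8.10 (ENSCAFG00000028987), 6.23 to 7.53 (ENSCAFG00000047367), 8.22 to 10.27 (ENSCAFG00000036997) and 4.25 to 8.02 (ENSCAFG00000038302), the last 2 lowest with a prior count of 5. That of the small mitochondrial rRNA gene turned to -0.055 with upper-quartile factors and -0.078 with no filter, and ranged from -0.14 to 0.26 with a library left out. Within the 5-digit libraries the share difference of the small gene was 0.128 points, that of the large gene 5.64, that of their sum 5.77, and the log2 ratio difference -0.40. Leaving out a library gave -0.996 to -0.0789 points for the small gene, 1.39 to 4.44 for the large gene and -0.56 to -0.39 for the ratio.

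Without mitochondrial genes in the denominator, the lymphoma r was 0.0503 with the small gene and -0.80 (exact permutation p = 0.0438) with the total count. With a library left out these r ran from -0.168 to 0.299 and from -0.901 (without L5, exact permutation p = 0.0236) to -0.534. The non-lymphoma r then ran from -0.785 to -0.321 with the small gene and from -0.855 to -0.518 with the large gene, passing 0.05 unadjusted without N1 in both.

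Genes called by edgeR went from 2132 to 725 with the replicate block, 104 within the 5-digit libraries and 1436 to 2516 with a library left out; DESeq2 called 3177. The split of 1182 higher and 950 lower became 985 and 1181 with upper-quartile factors. It became 869 and 1133 with no filter, where 28663 genes were tested. The 9 calls among other scaffold genes became 17 with no filter, 4 with the replicate block, 1 within the 5-digit libraries, 14 by DESeq2 and 7 to 14 with a library left out. The cause of these shifts was not tested, beyond fewer libraries in the 5-digit set. Replicate numbers did not pair the libraries: same-numbered deviations correlated from -0.34 to 0.35, above 0.1 in 1 of 7 pairs, and 1 of 7 lymphoma libraries correlated best with its own number. With the numbers as a replicate block the ratio difference of -0.49 had an exact sign-flip permutation p of 0.0156. Depth limits ENSCAFG00000036997 and ENSCAFG00000038302 in non-lymphoma libraries, with 15 and 4 counts in all.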
